A study of Mus musculus with 6 samples.

Results

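The 8 genes Calb1, Calb2, Pvalb, Necab1, Necab2, Necab3, Tpbg and Synpr, which encode calcium-binding and surface or vesicle proteins used to mark interneurons, were taken by symbol from a table of 22095 genes and followed in the mouse olfactory bulb after unilateral naris occlusion. All 8 were found, each under a single Ensembl identifier. Polyadenylated RNA was sequenced from both bulbs of 3 ICR mice, numbered 1037, 1038 and 1039. The left bulbs lay on the side of a silica gel plug placed in the naris at postnatal day 30, and the right bulbs of the same mice lay on the open side; all were taken 60 days later, so every open-side bulb also came from a mouse with a plug, and mice without one were not analysed here. Each library is labelled as 1 bulb of 1 mouse, 3 left and 3 right, and mixes all cells of the bulb. The libraries held 14571453 to 15590938 counts, and levels are given as CPM, each count scaled to its library's total.

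The olfactory bulb relays input from the sensory neurons of the nose, and most of its neurons are GABAergic interneurons, namely periglomerular cells around the glomeruli, cells of the external plexiform layer and granule cells deeper in the bulb. These cells are sorted into types largely by the calcium-binding proteins they hold. Calbindin (Calb1) and calretinin (Calb2) mark separate periglomerular types, and calretinin is also found in granule cells, while parvalbumin (Pvalb) marks cells of the external plexiform layer. All of these proteins bind calcium through EF hands, paired helices around a calcium-binding loop.

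The library labelled left 1038 went against its label, so it is shown apart, and the comparison of sides rests on 2 left bulbs (1037 and 1039) and 3 right bulbs. The cerebellar granule cell markers Cbln3, Gabra6, Fat2, Cbln1, Neurod1 and Zic1 together held 5841 CPM in the library labelled left 1038, against 222 to 313 CPM in the other 5. Bulb interneuron markers (Gad1, Gad2, Slc32a1, Dlx1, Dlx2, Dlx5, Dlx6, Meis2 and Sp8) held 909 CPM there, against 2982 to 4252 CPM in the others. In the 5 libraries edgeR's quasi-likelihood test called 1387 of 14412 genes (9.62%) at an adjusted p under 0.05. These split into 456 genes higher and 931 lower in left bulbs, and scaling by library totals alone turned that split into 975 and 589. With all 6 libraries edgeR called 0 of 14209 genes (0%), with 1196 at an unadjusted p under 0.05, limma-voom called 0 and DESeq2 called 194.

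Necab3 and Tpbg were lower and Calb2 was higher in the plugged-side bulbs. Necab3 stood at 0.416-fold and Tpbg at 0.50-fold of the open side, and Calb2 at 1.20-fold. In RNA of a mixed tissue, fewer cells of a type and less RNA per cell cannot be told apart, and with no mouse without a plug neither can a difference of the sides that occlusion does not make. Thus 2 of the 8 genes fell, where 6.46% of all genes tested did so, and 1 rose, where 3.16% did so. A block for the mouse left the same 3 genes called by edgeR, with backgrounds of 10.8% in either direction, 3.41% higher and 7.36% lower. Calb1, Pvalb, Necab1, Necab2 and Synpr did not pass the test. In 5 of the 8 genes the left and right CPM did not overlap, as for 46.4% of all genes tested. In 2 of these the left was higher (33.2% of all genes) and in 3 it was lower (13.2%). With all 6 libraries none of the 8 passed edgeR's test (smallest adjusted p = 0.343), 3 had an unadjusted p under 0.05, and DESeq2 called 1, which was Necab3.

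**Figure D1:**
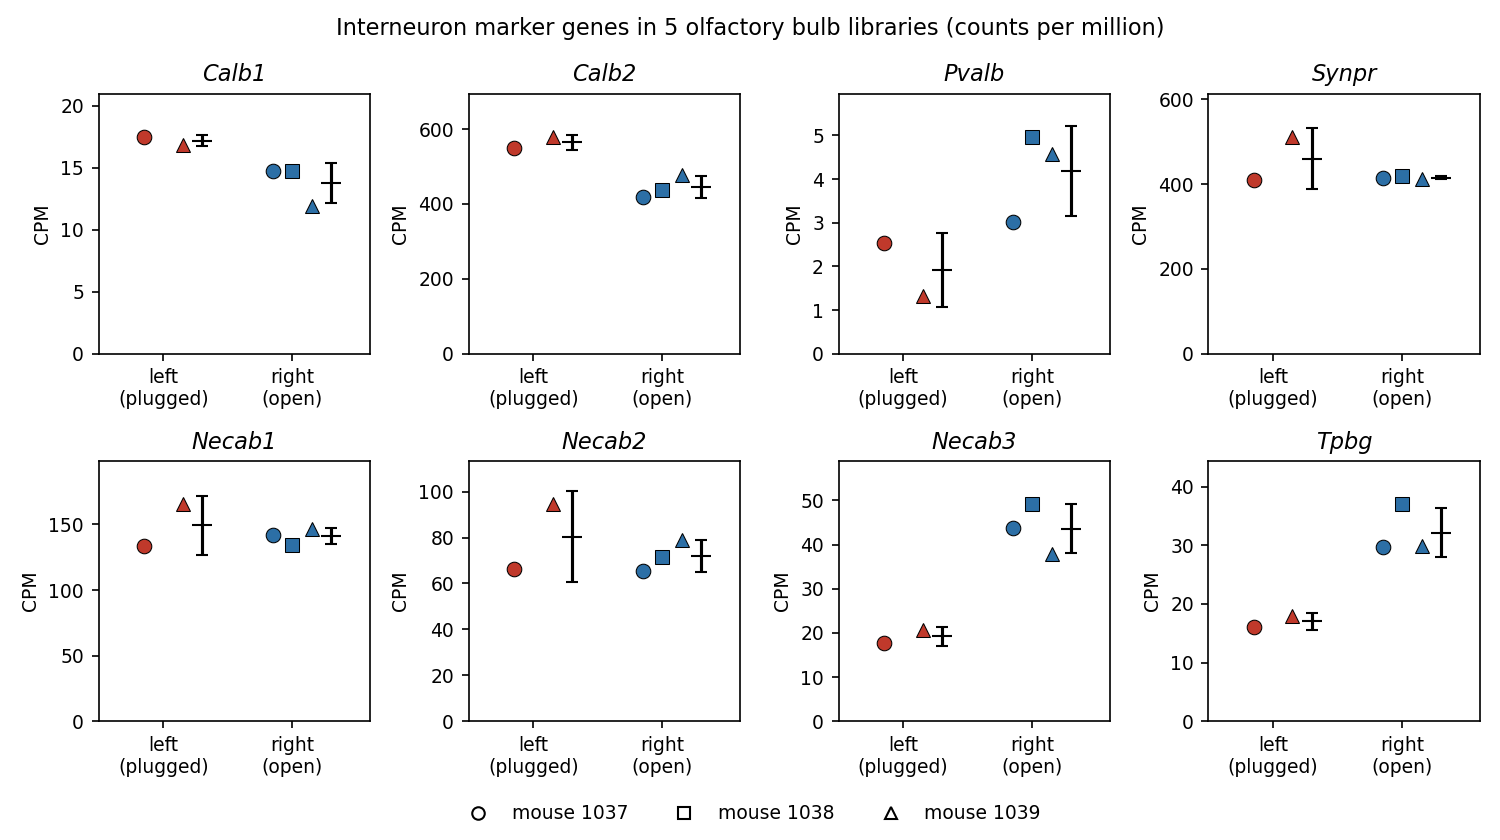
Level of each gene in CPM in the left (plugged) and right (open) bulbs, with a symbol per mouse and the mean and SD beside the points (n = 2 left, n = 3 right). Necab3 and Tpbg sit lower on the left in each library, Calb2 sits higher, and the points of Necab1, Necab2 and Synpr overlap.

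Necab3 belongs to the NECAB family of neuronal calcium-binding proteins, which join an EF-hand region to an antibiotic biosynthesis monooxygenase-like domain. Left 1037 held 17.7 CPM of it and left 1039 held 20.7 CPM, against 43.7, 49.1 and 37.9 CPM in right 1037, 1038 and 1039. The highest left bulb lay below the lowest right bulb. Left bulbs averaged 19.2 ± 2.14 CPM (SD, n = 2), against 43.6 ± 5.61 CPM for right bulbs (SD, n = 3), and on the log2 scale Necab3 fell by 1.27 (SE 0.13, adjusted p = 8.15e-04), the 35th smallest p of all genes tested. Within mouse 1037 the left bulb differed from the right by -1.28 and within mouse 1039 by -0.86 on the log2 CPM scale. The call held in all 13 alternatives computed on the 5 libraries or fewer, with values from -1.37 to -1.15. The gene (ENSMUSG00000027489, chromosome 2, 154544399 to 154558890 on GRCm38, minus strand) spans Actl10 and 1700003F12Rik on the other strand. Actl10 held 0 CPM and 1700003F12Rik at most 0.331 CPM in each of the 5 libraries.

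Necab1 and Necab2, the other members of the family, did not pass the test. Necab2 is known to bind the adenosine receptor encoded by Adora2a and the metabotropic glutamate receptor mGlu5. Necab1 in left 1037 was at 134 CPM and in left 1039 at 165 CPM, against 142, 134 and 147 CPM in the right bulbs of mice 1037, 1038 and 1039. Necab2 in left 1037 was at 66.3 CPM and in left 1039 at 94.5 CPM, against 65.4, 71.5 and 79.1 CPM in the same right bulbs. For each of these genes left 1039 was the highest library and left 1037 fell within or just below the range of the right bulbs. The log2 fold change was 0.0002 for Necab1 (95% interval -0.19 to 0.19, adjusted p = 0.999) and 0.077 for Necab2 (95% interval -0.22 to 0.37, adjusted p = 0.774). Without left 1039 the values were -0.15 and -0.19, and without left 1037 they were 0.15 and 0.31, none of which passed.

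The ratio of family members within a library does not depend on how libraries are scaled. The log2 ratio of Necab3 over Necab2 was -1.88 in left 1037 and -2.16 in left 1039, against -0.58, -0.54 and -1.05 in right 1037, 1038 and 1039. Every left ratio was below every right ratio, with group means 1.30 apart, and an exact two-sided permutation test gave p = 0.1, the smallest that 2 against 3 libraries allow. The ratio over Necab1 likewise did not overlap (group means -2.92 on the left and -1.69 on the right, exact permutation p = 0.1). The ratio of Necab2 over Necab1 overlapped (group means -0.90 and -0.97, exact permutation p = 0.7). These ratios were chosen with the values in view, and those with Necab3 restate its fall, so they are no separate support. The permutations did not keep the pairing by mouse.

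Tpbg, the trophoblast glycoprotein also called 5T4, is a leucine-rich repeat membrane protein that marks a type of superficial granule cell in the bulb. Left 1037 held 16 CPM of Tpbg and left 1039 held 18.0 CPM, against 29.6, 37.0 and 29.8 CPM in right 1037, 1038 and 1039. Both left bulbs lay below every right bulb. Left bulbs averaged 17 ± 1.40 CPM (SD, n = 2), against 32.1 ± 4.18 CPM for right bulbs (SD, n = 3), and Tpbg fell by 1.0 on the log2 scale (SE 0.12, adjusted p = 0.00164). Within mice 1037 and 1039 the differences were -0.87 and -0.71. The value stayed between -1.08 and -0.89 and past the threshold in all 13 alternatives on the 5 libraries or fewer. Tpbg (ENSMUSG00000035274) lies on chromosome 9, 85842380 to 85847040, on the plus strand. Tpbgl, its paralogue, had 0.41 (SE 0.13, adjusted p = 0.0756), and it was called higher when scaled by library totals alone (adjusted p = 0.0398).

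Synpr encodes synaptoporin, a synaptic vesicle protein of the synaptophysin family that is abundant in granule cells. Left 1037 held 409 CPM of Synpr and left 1039 held 511 CPM, against 415, 420 and 411 CPM in the right bulbs. The 3 right bulbs lay within 1.02-fold of each other, while left 1039 was 1.25-fold above left 1037. Necab1 and Necab2 showed the same order of the left bulbs, with left 1039 at 1.24-fold and 1.43-fold of left 1037. The log2 fold change of Synpr was 0.065 (95% interval -0.12 to 0.25, adjusted p = 0.692). It was 0.22 without left 1037 and -0.093 without left 1039, neither past the threshold. The log2 ratio of Tpbg over Synpr was -4.63 and -4.79 in left 1037 and 1039, against -3.79, -3.49 and -3.76 in the right bulbs. The sides did not overlap in this ratio (exact two-sided permutation p = 0.1, the smallest possible). The ratio was chosen with the values in view and restates the fall of Tpbg, so it is no separate support. The permutations did not keep the pairing by mouse.

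The sequences of the start regions of Tpbg and Necab3 are shown because these genes fell, with Necab2 beside them as the relative of Necab3 that did not pass. Each is a RefSeq window on GRCm38.p6 from 250 bases before to 50 after the start, printed 5′ to 3′ on the gene's strand: chr9:85842130-85842429 (plus) for Tpbg, chr2:154558805-154559104 (minus) for Necab3 and chr8:119446469-119446768 (plus) for Necab2. Capitals mark the AP-1 motif TGANTCA, with N as any base, in Tpbg and Necab2. It is looser than TGACTCA or TGAGTCA, the form bound by Fos and Jun factors. In Necab3 they mark the GC box GGGCGG or its reverse complement.
Tpbg: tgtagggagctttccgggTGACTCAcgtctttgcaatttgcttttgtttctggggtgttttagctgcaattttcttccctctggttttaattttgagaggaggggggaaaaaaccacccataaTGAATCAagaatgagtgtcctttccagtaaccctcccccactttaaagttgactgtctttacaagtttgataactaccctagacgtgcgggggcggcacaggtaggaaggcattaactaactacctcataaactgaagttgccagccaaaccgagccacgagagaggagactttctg
Necab3: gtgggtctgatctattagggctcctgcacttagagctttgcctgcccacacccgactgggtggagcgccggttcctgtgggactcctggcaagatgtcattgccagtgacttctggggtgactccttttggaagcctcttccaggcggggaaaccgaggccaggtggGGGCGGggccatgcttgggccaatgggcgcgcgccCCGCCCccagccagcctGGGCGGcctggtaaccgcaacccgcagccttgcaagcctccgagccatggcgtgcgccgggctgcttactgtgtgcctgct
Necab2: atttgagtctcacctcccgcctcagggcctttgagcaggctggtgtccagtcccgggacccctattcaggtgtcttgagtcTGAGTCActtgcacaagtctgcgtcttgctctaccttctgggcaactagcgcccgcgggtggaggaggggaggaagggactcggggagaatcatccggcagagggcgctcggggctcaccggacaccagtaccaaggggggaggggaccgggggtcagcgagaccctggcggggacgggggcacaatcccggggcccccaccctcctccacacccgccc
The Tpbg window held the AP-1 motif at 232 bases before the start, as TGACTCA, and at 127 bases, as TGAATCA. The latter is not the stricter form. The Necab2 window held the motif at 169 bases before the start, as TGAGTCA. At least 1 match to TGANTCA occurred in 7.81% of the 32851 RefSeq windows of this length, and 2 or more in 0.46%. Windows with the stricter form were not counted. The Necab3 window held no AP-1 motif and 3 GC boxes, at 83, 48 and 31 bases before the start, where 35.7% of all windows held at least 1. A GC box, not in capitals, also lay 37 bases before the start of Tpbg and 45 after that of Necab2. The CRE half-site TGACG, the core GCGTGGG of Egr factors and the TATA motif TATAAA, found in 20.8%, 5.04% and 13.6% of all windows, were in none of the 3 windows shown. Both strands were searched, and no pair of matches shared a base. The windows of Tpbg and Necab3 differed in composition, with 46% and 66% G or C, against a median of 52.7% over all windows. Of the 8 genes, 5 were matched to a window, which left Calb1, Calb2 and Necab1. The second window listed for Tpbg, chr9:85842602-85842901, held a GC box at 42 bases before its start and no AP-1 motif. A match to a short motif is a description of the letters and not evidence of binding.

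Calb2 encodes calretinin. Left 1037 held 550 CPM of it and left 1039 held 579 CPM, against 419, 438 and 478 CPM in right 1037, 1038 and 1039. Both left bulbs were above every right bulb, but by little more than the right bulbs differed among themselves. Left bulbs averaged 565 ± 20.6 CPM (SD, n = 2), against 445 ± 30.1 CPM for right bulbs (SD, n = 3), and Calb2 rose by 0.26 on the log2 scale (SE 0.07, 95% interval 0.11 to 0.41, adjusted p = 0.0364). Within mice 1037 and 1039 the left bulb was higher by 0.39 and 0.28. The direction held in all 13 alternatives on the 5 libraries or fewer, with values from 0.23 to 0.34, and the threshold was passed in 9 of them. Leaving out left 1039, right 1037 or right 1038 ended the call (adjusted p = 0.107, 0.121 and 0.113), as did DESeq2 with a block for the mouse (adjusted p = 0.0952). Calb2 (ENSMUSG00000003657) lies on chromosome 8, 110137502 to 110168210.

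Calb1 encodes calbindin. Left 1037 held 17.5 CPM of Calb1 and left 1039 held 16.9 CPM, against 14.8, 14.7 and 11.9 CPM in the right bulbs. The left values were the higher ones without overlap, with a log2 fold change of 0.23 (SE 0.13, 95% interval -0.063 to 0.53, adjusted p = 0.318), which did not pass in any of the 13 alternatives. The log2 ratio of Calb2 over Calb1 overlapped between the sides, with means of 5.0 on the left and 4.97 on the right (exact permutation p = 1.0).

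Pvalb, parvalbumin, was measured from few reads. It had 39 and 20 reads in left 1037 and 1039, against 47, 75 and 67 reads in right 1037, 1038 and 1039. These correspond to 2.53 CPM (1.85 to 3.45) and 1.33 CPM (0.859 to 2.05) on the left, against 3.01 CPM (2.27 to 4.01), 4.97 CPM (3.96 to 6.23) and 4.57 CPM (3.60 to 5.81) on the right, with 95% Wilson intervals that cover counting error only. Every left value was below every right value, although the intervals of left 1037 and right 1037 overlapped. The log2 fold change was -1.19 (SE 0.34, 95% interval -1.95 to -0.43), and with an adjusted p of 0.0571 it did not pass. It was -1.73 without left 1037 (adjusted p = 0.0300) and -0.79 without left 1039 (adjusted p = 0.245). DESeq2 called it (adjusted p = 0.0346), and so did edgeR without a filter on low counts (adjusted p = 0.0491).

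The order of the genes by level was the same by each length measure used. Divided by the merged exon length of each gene in the GENCODE M21 annotation, the open-side level was 255 ± 17.2 CPM per kilobase for Calb2, 44.0 ± 0.437 for Synpr, 34.4 ± 3.27 for Necab2, 26.9 ± 1.2 for Necab1, 17.1 ± 2.20 for Necab3, 8.40 ± 1.09 for Tpbg, 4.02 ± 0.992 for Pvalb and 2.85 ± 0.332 for Calb1 (SD, n = 3). Each gene's lowest right bulb lay above the highest right bulb of the next gene in this order, except for Pvalb and Calb1, whose values overlapped. Calb2 thus stood 5.81-fold above Synpr, and above 99.7% of the 17424 genes with a count in these bulbs, while Calb1 stood above 42.7% of them. With the longest annotated transcript as length the order was unchanged. On the left, Calb2 stood at 324 ± 11.8 CPM per kilobase, Necab3 at 7.53 ± 0.839, Tpbg at 4.44 ± 0.367 and Pvalb at 1.85 ± 0.815 (SD, n = 2).

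**Figure D2:**
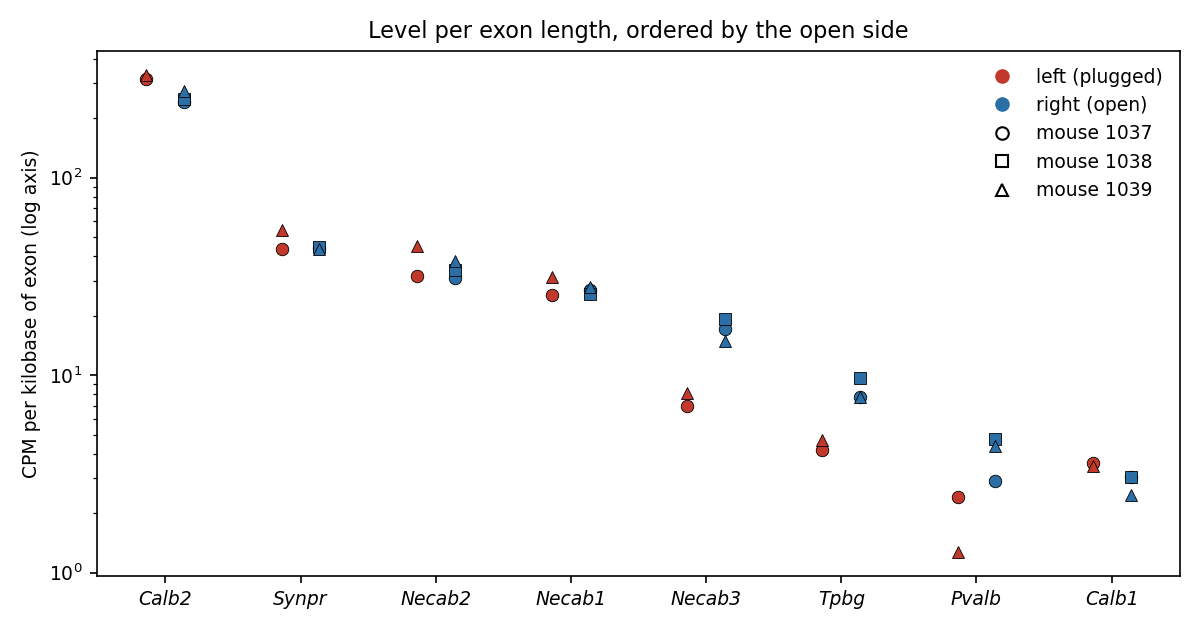
CPM per kilobase of merged exon on a log axis for the 8 genes, ordered by the mean of the right (open) bulbs, with left (plugged) bulbs in red at the left of each pair and a symbol per mouse. The right bulbs span from 2.85 for Calb1 to 255 for Calb2 on average, and the red points of Necab3 and Tpbg lie below the blue ones.

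Summed markers of several other cells differed between the sides, and their part in these differences was not tested. The sums are plain CPM, by which 33.2% of all genes tested were higher on the left without overlap and 13.2% lower. The counts in these lists stand beside 6.46% of all genes tested that fell and 3.16% that rose (4.09% and 6.77% when scaled by library totals alone). Markers of olfactory sensory neurons (Omp, S100a5, Gng13, Stoml3, Cnga2 and Adcy3), of which 5 of 6 fell, summed to 53.8 to 109 CPM on the left and 289 to 360 CPM on the right. Adcy3 was not called without left 1039, right 1037 or right 1038 (largest adjusted p = 0.156) or when scaled by library totals alone (adjusted p = 0.0551), nor Gng13 without right 1037 (adjusted p = 0.0552). The 9 bulb interneuron markers named above summed to 2982 to 3426 CPM on the left and 3922 to 4252 CPM on the right. Of these 4 fell (Gad1, Gad2, Slc32a1 and Sp8) and 0 rose. Most of the gap lay in Gad1 (means of 1389 CPM on the left and 1946 CPM on the right) and Gad2 (374 and 577 CPM). Dlx1, Dlx2, Dlx5, Dlx6 and Meis2 were not called, with log2 fold changes from -0.17 (Meis2) to 0.096 (Dlx6). Sp8 was not called without left 1037 (adjusted p = 0.0550). Markers of microglia summed to 173 to 186 CPM on the left and 143 to 148 CPM on the right, with 0 of 5 past the test, while library totals alone made 1 of them higher. Astrocyte markers summed to 2046 to 2149 CPM on the left and 1833 to 1984 CPM on the right, with 1 of 5 higher, and 2 by library totals alone. In the fit of the 5 libraries the median log2 fold change was -0.0086 for the astrocyte markers and 0.25 for the microglia markers, against 0.0049 over all genes. Markers listed for cerebellar granule cells summed to 297 to 313 CPM in left bulbs and 222 to 238 CPM in right bulbs, where Neurod1 and Zic1, which the bulb expresses too, rose; Zic1 was not called without right 1037 (adjusted p = 0.0525). The sums of mitral and tufted cell, oligodendrocyte, and endothelial and mural cell markers overlapped between the sides. Within them Tbx21, a transcription factor of mitral and tufted cells, rose by 0.65 (SE 0.11, adjusted p = 0.0058), a call that held whichever library was left out. Olig1 of oligodendrocytes fell by 0.38 (SE 0.08, adjusted p = 0.0169), and lost its call without left 1039, right 1037 or right 1039 (largest adjusted p = 0.102). The other genes of these 3 lists were not called. Of the markers listed for cerebellar molecular layer interneurons other than Pvalb (Ptf1a, Tfap2a and Sorcs3), the sum was 32.8 to 34.5 CPM in left bulbs and 37.3 to 48.2 CPM in right bulbs, and Sorcs3 fell by 0.47 (adjusted p = 0.0327). That call was lost when left 1037, left 1039, right 1037 or right 1038 was left out (largest adjusted p = 0.121) and under library totals alone (adjusted p = 0.0574). Markers of skeletal muscle, another tissue that holds parvalbumin, summed to at most 4.37 CPM, with Ckm and Tnnt3 at 3 counts or fewer in each of the 5 libraries.

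Among other EF-hand calcium sensors and buffers, more genes were lower than higher on the left. Counts sufficed for a test in 36 of the 46 listed genes, and 8 fell and 1 rose, where 6.46% of all genes tested fell and 3.16% rose (median log2 fold change -0.10, against 0.0049 over all genes). Scaled by library totals alone, 5 fell and 2 rose, where 4.09% and 6.77% of all genes did so (median -0.017, against 0.087 over all genes). Scgn, secretagogin, a calcium sensor of bulb interneurons, stood at 26.8 and 30.1 CPM in left 1037 and 1039, against 47.1, 55.6 and 48.0 CPM in the right bulbs. Its groups did not overlap, and it fell by 0.90 (SE 0.10, adjusted p = 0.00126). Hpcal4, a hippocalcin-like neuronal calcium sensor, fell by 0.63 (SE 0.10, adjusted p = 0.00473), averaging 319 ± 47.4 CPM in left bulbs (SD, n = 2), against 466 ± 38.0 CPM in right bulbs (SD, n = 3). Kcnip2, a subunit of A-type potassium channels, was the gene that rose, by 0.42 (SE 0.06, adjusted p = 0.0023), averaging 234 ± 9.95 CPM in left bulbs (SD, n = 2), against 165 ± 3.68 CPM in right bulbs (SD, n = 3). Tesc, tescalcin, fell by 0.74, a call that ended without left 1039 (adjusted p = 0.0577). S100b, also a marker of glia, fell by 0.51, a call that ended without left 1039 or right 1037 (adjusted p up to 0.0734). S100a10 and Efhd2 fell by 0.50 and 0.27, calls that ended in 4 of the 5 leave-outs each, without left 1037, right 1038 or right 1039, and also without right 1037 for S100a10 and left 1039 for Efhd2 (adjusted p up to 0.132 and 0.154).

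The relatives of synaptoporin and the known partners of the NECAB and Tpbg proteins were also counted, with the paralogue Tpbgl in the partner list. Of all genes tested, 6.46% fell and 3.16% rose (4.09% and 6.77% when scaled by library totals alone). Of 6 tested genes of the synaptophysin and synaptogyrin family 2 fell and 0 rose, with a median log2 fold change of -0.036, against 0.046 and 1 that fell when scaled by library totals alone. Syngr1, synaptogyrin 1, fell by 0.36 (SE 0.07, adjusted p = 0.00938). Syp, synaptophysin, fell by 0.24 (SE 0.06, adjusted p = 0.0261), averaging 737 ± 9.94 CPM in left bulbs (SD, n = 2), against 823 ± 8.72 CPM in right bulbs (SD, n = 3). Syp lost its call when left 1039 or any 1 of the right bulbs was left out (adjusted p up to 0.112) and in the blocked fit (adjusted p = 0.0517). Of the 10 genes of the partner list 1 fell, which was Syt1, synaptotagmin 1, by 0.29 (adjusted p = 0.0248). Syt1 lost its call when left 1039, right 1037 or right 1038 was left out (largest adjusted p = 0.126) and in the blocked fit (adjusted p = 0.0503). Under library totals alone 0 genes of the partner list fell and 1 rose, which was Tpbgl, the paralogue of Tpbg (edgeR adjusted p = 0.0398). The receptors bound by Necab2 did not pass, with 0.0066 for Grm5 (SE 0.09, adjusted p = 0.977) and -0.56 for Adora2a (SE 0.22, adjusted p = 0.158).

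**Figure D3:**
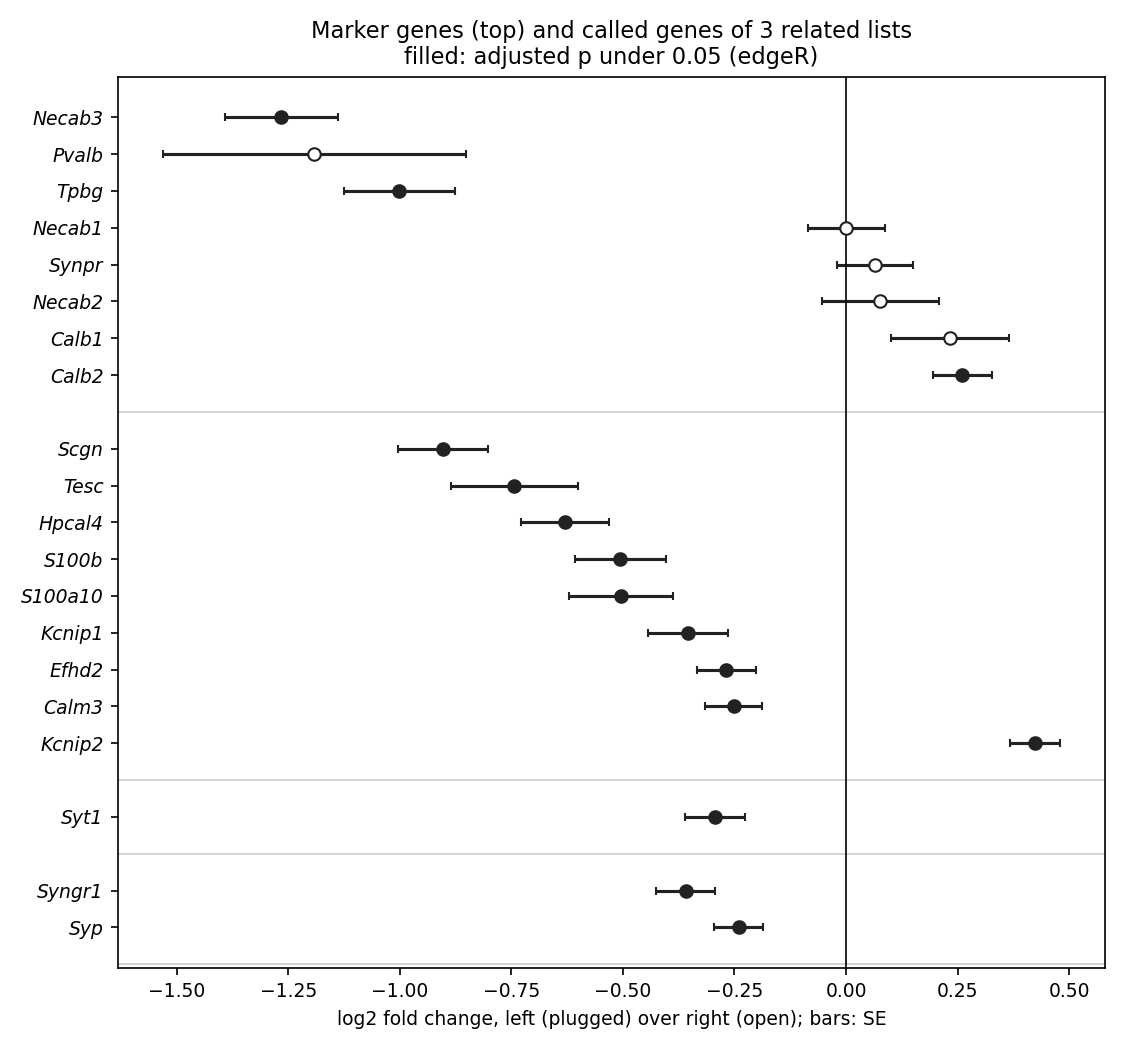
Log2 fold change of left (plugged) over right (open) with its SE for the 8 marker genes (top) and for the called genes of the EF-hand list, the partner list and the synaptophysin family (lower blocks); filled points passed at an adjusted p under 0.05. Necab3 at -1.27 and Tpbg at -1.0 lie furthest to the left among the filled points, and Kcnip2 at 0.42 and Calb2 at 0.26 are the filled points above 0.

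Of the 25 tested genes in the list of other bulb interneuron markers, which holds Scgn too, 11 fell and 1 rose (median log2 fold change -0.37), where 6.46% of all genes fell and 3.16% rose. Eomes and Lhx5 of this list, neither of them called, are in the mitral and tufted cell list too. The list is therefore not one of interneuron genes alone. In which cells its called genes changed, Cck and Reln among them, was not tested. Library totals alone gave the same counts, where 4.09% and 6.77% of all genes did so. Th, tyrosine hydroxylase of dopaminergic cells, fell by 1.82, and Gad2, a GABA-synthesizing enzyme, fell by 0.71. Crh, the neuropeptide corticotropin-releasing hormone, fell by 2.01, and Cck, cholecystokinin, fell by 1.07. Etv1, a transcription factor, fell by 0.72. These 5 calls held whichever library was left out (adjusted p up to 0.006). Reln, reelin, was the gene that rose, by 0.35 (SE 0.09, adjusted p = 0.0458), a call lost when left 1037 or any 1 of the right bulbs was left out (largest adjusted p = 0.209).

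Genes whose levels over the 5 libraries were most like those of the called genes were sought among 10476 genes with a mean of at least 10 CPM. The measure was the largest difference in any library of log2 CPM centred on the gene's mean. The closest to Tpbg were Bach2 (0.080), Scgn (0.091) and Pappa (0.097). The closest to Necab3 were Ccn4 (0.12), Grem1 (0.19) and Bach2 (0.19), and those closest to Calb2 were Ezh1 (0.028), Paxx (0.029) and Sprtn (0.030). Bach2 was thus among the 3 closest of both genes that fell. Both genes were lower on the left in these same 5 libraries, so a gene with that difference can be near both. How often genes share a neighbour was not computed.

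The library labelled left 1038 differed from the other 5 most in Calb1 and Pvalb. Calb1 stood at 914 CPM in it, against 11.9 to 17.5 CPM in the others, 60.0-fold their median, and Pvalb at 468 CPM, against 1.33 to 4.97 CPM, 133-fold their median. Calbindin is known as a marker of cerebellar Purkinje cells, and parvalbumin is found in Purkinje cells and in interneurons of the cerebellar molecular layer. The sum of Ptf1a, Tfap2a and Sorcs3 was 40.0 CPM in this library, against 32.8 to 48.2 CPM in the other 5. This sum hides parts that moved in opposite directions. Tfap2a reached 16.1 CPM in left 1038, while no other library exceeded 1.17 CPM. Sorcs3, the larger part, was down to 24.0 CPM in left 1038, and its lowest value elsewhere was 31.6 CPM. Ptf1a had 0 CPM in all 6 libraries. Calb2, also known from cerebellar granule cells, stood at 397 CPM, against 419 to 579 CPM, and Necab3 at 17.0 CPM, against 17.7 to 49.1 CPM. Necab1, Necab2, Tpbg and Synpr stood at 13.8, 3.50, 3.57 and 41.1 CPM, which were 9.98-fold, 18.0-fold, 7.41-fold and 9.99-fold below the median of the others. Thus 6 of the 8 genes differed by more than 4-fold, 2 of them higher and 4 lower, where 8.86%, 2.38% and 6.48% of all genes tested did so. With a single library these values have no replicate check and no test.

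**Figure D4:**
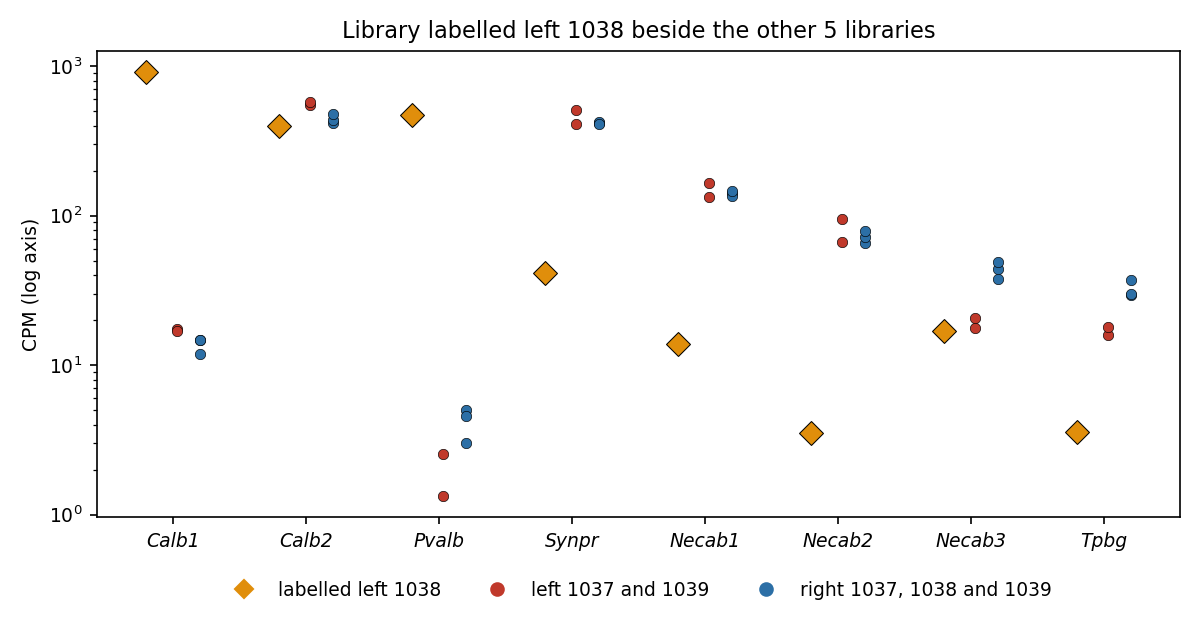
CPM of the 8 genes on a log axis in the library labelled left 1038 (diamonds), in left 1037 and 1039 (red) and in the 3 right bulbs (blue). The diamonds of Calb1 (914 CPM) and Pvalb (468 CPM) lie far above the other points, and those of Synpr, Necab1, Necab2 and Tpbg lie far below.

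**Figure D5:**
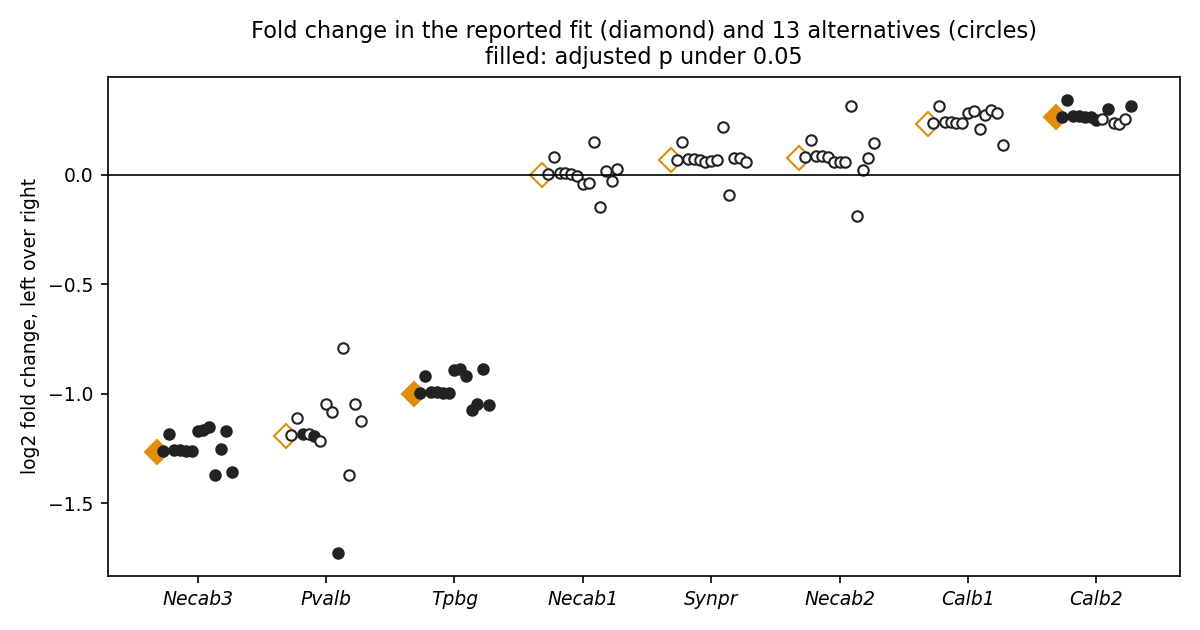
Log2 fold change of left over right for each gene in the reported fit (diamonds) and 13 alternatives on 5 libraries or fewer (circles), filled where the adjusted p was under 0.05. All points of Necab3 and Tpbg are filled and at -0.89 or lower, those of Calb2 are above 0 with 4 circles open, and those of Necab1 lie on both sides of 0.

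Included among the left bulbs, this library reversed the sign for Pvalb, Necab1, Necab2 and Synpr. With all 6 libraries the log2 fold change was 5.24 for Pvalb, and -0.51, -0.47 and -0.45 for Necab1, Necab2 and Synpr. For Calb1 it was 4.52, against 0.23 without this library, so its sign was the same. The log2 fold change was -1.29 for Necab3, -1.43 for Tpbg and 0.14 for Calb2 (adjusted p = 0.343, 0.554 and 0.703). The direction of these 3 was also the same with this library and without it.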

How the data were processed

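RNA was sequenced from 6 bulbs, grouped by side with the mouse number as the replicate. The authors deposited whole-number read counts per gene, per the file headers and not normalized. The deposited RPKM values rest on a length that lay within 1 base of the genomic span, introns included, of 78.3% of genes, per the file headers and the annotation, and were not used. The submitters' processing notes name GRCm38, TopHat2, HTSeq 0.6.1p2, cutadapt 1.2.1 and DESeq 1.18.0, without saying what each did. The strand setting and the treatment of multiply mapped reads are not given in the sources used here. Symbols were found for 21852 genes and not for 243.

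Counts of the 5 libraries other than left 1038 were tested with edgeR 4.0.16 (TMM, filterByExpr, glmQLFTest) in R 4.3.3. The model held side alone, and p-values were adjusted over all tested genes by Benjamini-Hochberg. An adjusted p with no tool beside it is this two-sided one. The SE is the absolute log2 fold change over the square root of F. Within-mouse differences, ratios, likeness and folds of left 1038 used CPM + 0.5. The test was first checked on simulated counts of the 5 libraries with known changes. It recovered 50.7% of 1.5-fold, 86.4% of 2-fold and 96.9% of 4-fold changes, and 7.78% of its calls were false. Changes near 1.5-fold can thus go uncalled. Since whether the bulbs were processed together is not stated, p-values measure the spread between these libraries, which may be partly technical. A count of 0 allows up to 3 counts, 0.192 to 0.206 CPM.

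The labels give both bulbs of an animal its number, which pairs them. In the 5 libraries same-numbered deviations from the side means correlated at 0.23 in mouse 1037 and 0.24 in mouse 1039. These values are not independent, since the deviations of 2 left bulbs mirror each other. With all 6 libraries they were 0.082, 0.048 and 0.12 in mice 1037, 1038 and 1039. The main fit had no block, as planned, and the block was an alternative. Others were total library size, RLE size factors, no filter, 1 CPM in 2 libraries, DESeq2 1.42.0, limma-voom (limma 3.58.1), all 6 libraries and each library left out.

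The genes, lists and tests were chosen with earlier results of these data known. Named were all 8 genes, up to 6 called genes by smallest p for each list and direction, and the 3 genes most like each called gene. Tpbgl, Grm5, Adora2a, Neurod1, Zic1, Tbx21, Olig1, Sorcs3, Adcy3, Gng13, Sp8 and the overlapping genes were named after their values were seen. The single values of Tfap2a and Ptf1a, and those of Gad1, Gad2, Meis2 and Dlx6 beside the summed bulb interneuron markers, were likewise added after they were seen. The summed level of the Purkinje cell markers is not reported here.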

Additional observations from a re-analysis of the deposited data

Results flagged for a closer look

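In the library labelled left 1038, which the comparison of sides does not use, a pair of the genes stood over 4-fold above the highest open-side bulb. Calb1 was at 914 CPM (95% Wilson interval 899 to 930, counting error only), against 14.8 CPM in the highest right bulb. Pvalb was at 468 CPM (457 to 479), against 4.97 CPM in the highest right bulb. The cerebellar granule cell markers named above stood at 5841 CPM in this library, against 222 to 238 CPM in the right bulbs. The cause was not tested.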

How the results depend on the processing

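The number of genes called was 1387 in the 5 libraries and 432 by DESeq2 with the mouse as a block. With all 6 libraries, with and without that block, edgeR called 0 genes and 0 of the 8 marker genes (671 and 1196 genes at an unadjusted p under 0.05). Leaving out 1 library gave 660 to 1096 genes and 2 to 4 of the 8; the count was 885 without left 1039, 669 without right 1037 and 660 without right 1038, with fewer samples in each. Necab3 and Tpbg passed in all 13 alternatives on 5 libraries or fewer, Calb2 in 9, Pvalb in 3 and the others in none. In edgeR the block changed no call of the 8 genes. In DESeq2 it ended that of Calb2, and Pvalb, called by DESeq2 without the block, had no adjusted p with it (unadjusted p = 0.0834).

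Values that changed sign were those of genes that did not pass. Necab1 had -0.0071 by limma-voom, -0.041 and -0.038 with the block by edgeR and DESeq2, -0.031 without right 1038, -0.15 to 0.15 over the leave-outs, and -0.51 and -1.01 with all 6 libraries, without and with the block. In the same settings of 6 libraries Necab2 had -0.47 and -1.13, Synpr -0.45 and -0.95, and Pvalb 5.24 and 0.93. Over the leave-outs Necab2 had -0.19 to 0.31 and Synpr -0.093 to 0.22. The causes of these changes were not tested. Depth limits Pvalb most, with 20 to 75 reads per library.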

Other observations

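Across the alternatives on 5 libraries or fewer, Calb1 kept a positive log2 fold change in all 13, from 0.14 to 0.31, without passing in any. The ratio of Calb2 over Pvalb within a library was higher on the left, with a mean log2 ratio of 7.91 in left bulbs and 6.60 in right bulbs and no overlap (exact two-sided permutation test, p = 0.1, the smallest possible). Tpbg over Necab3 also did not overlap, with means of -0.17 on the left and -0.43 on the right (exact permutation p = 0.1). These values were looked at after the data were seen.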
